A study of Homo sapiens with 12 samples.

Results

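The cytosolic heat shock genes followed here are 10 genes of 25369 in the deposited tables, taken by symbol: HSPA1A, HSPA1B, HSPA6 and HSPA8 of the HSP70 family, HSPH1 of the HSP110 family, DNAJB1 and DNAJA1 of the HSP40 family, HSPB1, and the HSP90 genes HSP90AA1 and HSP90AB1. Chaperones of the HSP70 family bind unfolded stretches of other proteins in cycles driven by ATP. HSP40 proteins deliver clients and start the ATP step, HSP110 proteins exchange the nucleotide, small heat shock proteins hold unfolding proteins in solution, and HSP90 dimers finish the folding of kinases, receptors and many other clients. Under stress the transcription factor HSF1 forms trimers that bind heat shock elements, inverted repeats of the letters GAA, and raise the inducible genes, while HSPA8 and HSP90AB1 are the abundant forms of unstressed cells.

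RNA was sequenced from 12 libraries of HEK293T, a transfectable line from human embryonic kidney, in 4 groups of 3. TNIP2 Pulldown is RNA recovered with residues 196 to 346 of TNIP2, joined to a Halo tag, after purification of the tagged protein from transfected cells. Control Pulldown is RNA recovered in the same way with the Halo tag alone. TNIP2 Input and Control Input are total RNA of the whole cell extracts from which the purifications were made. All groups thus carried a transfected plasmid and had ribosomal RNA removed, no heat shock or other stress is named in the labels, and only a fragment of TNIP2 was expressed. No label states whether replicates are separate transfections, and p-values therefore cover only the spread among these libraries, part of which may be technical.

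Reads recovered from the deposited values numbered 10307806 to 29510383 in TNIP2 Pulldown, 3563511 to 6404029 in Control Pulldown, 8898650 to 16738890 in TNIP2 Input and 13768144 to 20773217 in Control Input, so low genes were measured least precisely in Control Pulldown. Markers of HEK293 cells were all 9 in the tables and summed to 13629 to 14206, 10171 to 11002, 9487 to 10960 and 10839 to 11240 normalized counts in the same order of groups, with PAX2 and SOX11 close to 0 FPKM throughout. These sums hide opposite changes, since in limma 2 of 8 tested were higher and 3 lower in TNIP2 Pulldown than in Control Pulldown. Of all genes tested, 30.6% were higher and 28.7% lower there. Summed blood markers stayed between 23 and 120 in every library, with HBB and CD3E at 0 in all groups. Fibroblast and endothelial markers summed to 59 to 146, and epithelial markers to 4 to 42. The TNIP2 transcript, which includes the plasmid's, had 51905, 69806 and 193013 normalized counts in TNIP2 Pulldown, against 1472, 309 and 391 with the tag alone. Extracts had 16750, 13318 and 46568 in TNIP2 Input, against 278, 304 and 272 in Control Input. In both TNIP2 groups the library numbered 3 held the most of it.

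Promoters of the members share letters of heat shock elements, which genes picked by symbol as heat shock genes can carry through that choice. The windows of 4 members with large differences or near-identical copies are shown first. RefSeq windows of the build GRCh38.p14, from 250 bases before to 50 after each annotated start, were found for all 10 members, 15 windows in all. Capitals mark GAANNTTC or TTCNNGAA, which are 2 inverted units of a heat shock element, and longer capitals are overlapping matches. Each sequence runs 5′ to 3′ in the direction of the gene. HSPA1A lies on the plus strand at chr6:31815293-31815592 and HSPA1B at chr6:31827488-31827787, HSPA6 at chr1:161524290-161524589, and the third of 3 starts of HSP90AB1 at chr6:44247693-44247992, all on the plus strand.
HSPA1A: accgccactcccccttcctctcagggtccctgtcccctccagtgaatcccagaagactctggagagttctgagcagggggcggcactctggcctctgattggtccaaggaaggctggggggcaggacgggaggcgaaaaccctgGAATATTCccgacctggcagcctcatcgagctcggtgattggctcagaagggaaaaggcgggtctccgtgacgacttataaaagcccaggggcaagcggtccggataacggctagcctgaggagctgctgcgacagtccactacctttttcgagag
HSPA1B: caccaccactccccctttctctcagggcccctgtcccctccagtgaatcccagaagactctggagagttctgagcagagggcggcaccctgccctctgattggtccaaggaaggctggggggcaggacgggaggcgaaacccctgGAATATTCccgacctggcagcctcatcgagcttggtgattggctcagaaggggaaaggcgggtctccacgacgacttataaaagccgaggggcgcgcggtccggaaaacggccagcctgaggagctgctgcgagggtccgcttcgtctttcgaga
HSPA6: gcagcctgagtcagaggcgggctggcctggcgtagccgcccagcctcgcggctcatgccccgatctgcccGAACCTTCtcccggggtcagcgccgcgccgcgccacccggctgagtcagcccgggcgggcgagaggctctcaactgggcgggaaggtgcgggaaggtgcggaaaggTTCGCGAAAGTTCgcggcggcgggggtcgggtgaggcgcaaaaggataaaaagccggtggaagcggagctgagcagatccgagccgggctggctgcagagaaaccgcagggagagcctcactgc
HSP90AB1: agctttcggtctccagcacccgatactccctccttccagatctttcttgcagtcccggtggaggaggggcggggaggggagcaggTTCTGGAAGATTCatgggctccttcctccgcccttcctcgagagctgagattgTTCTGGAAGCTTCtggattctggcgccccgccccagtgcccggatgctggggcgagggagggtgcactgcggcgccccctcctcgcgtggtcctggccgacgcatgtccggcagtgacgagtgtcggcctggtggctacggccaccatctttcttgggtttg
The HSPA1A and HSPA1B windows were identical at 277 of 301 aligned columns, 92.0%, and each held 1 match, at 106 and 105 bases before the start. HSPA6 held 3 matches and the third HSP90AB1 start held 4.

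Runs of 3 units, spelled GAANNTTCNNGAA or TTCNNGAANNTTC, stood in 5 of the 10 members, which were HSPA6, HSPA8, DNAJA1, HSP90AA1 and HSP90AB1. Such runs stood in 0.490% of 35116 RefSeq windows of the same length and in 0.608% of 27305 genes. The shorter spelling stood in 9 of 10 members, with HSPH1 as the exception, against 13.5% of all windows and 16.2% of all genes. Both spellings read the same on either strand. The stretches listed next show a match of each other member that has any, with 10 bases on each side. HSPA8 is at chr11:123062344-123062376 on the minus strand, HSP90AA1 at chr14:102087095-102087142 on the minus strand, DNAJA1 at chr9:33025266-33025298 on the plus strand, DNAJB1 at chr19:14518457-14518484 on the minus strand and HSPB1 at chr7:76302481-76302508 on the plus strand.
HSPA8: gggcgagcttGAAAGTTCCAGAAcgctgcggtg
HSP90AA1: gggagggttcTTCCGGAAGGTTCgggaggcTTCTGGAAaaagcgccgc
DNAJA1: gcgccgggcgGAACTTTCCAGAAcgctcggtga
DNAJB1: gggcggggcgGAAGGTTCtggagggggc
HSPB1: cttaacgagaGAAGGTTCcagatgaggg
A match is a description of these letters and not a mapped binding site, and its absence from the HSPH1 window says only that these letters are not there. Other starts of DNAJB1, HSP90AA1 and HSP90AB1 held fewer matches or none, as the map of the windows shows.

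**Figure D1:**
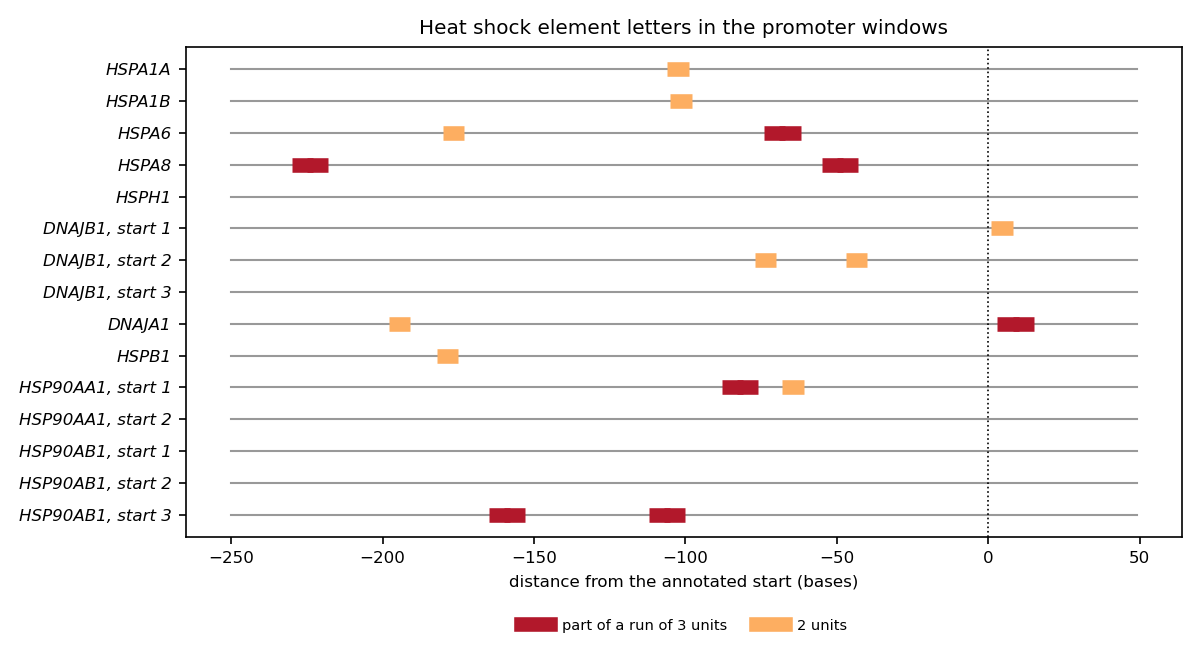
Positions of heat shock element letters in the 15 promoter windows of the 10 members, by distance in bases from the annotated start. Orange boxes are 2 units and dark red boxes are runs of 3 units, which stand in HSPA6, HSPA8, DNAJA1, HSP90AA1 and the third start of HSP90AB1.

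On the scale per length the constitutive genes led in purified and total RNA. Mean FPKM in TNIP2 Pulldown was 1010 ± 194 for HSPA8, 906 ± 36.8 for HSP90AB1, 185 ± 42.0 for HSP90AA1, 155 ± 37.8 for DNAJA1, 60.3 ± 20.2 for HSPB1, 52.8 ± 13.4 for DNAJB1, 30.01 ± 6.03 for HSPH1 and 7.62 ± 10.9 for HSPA6 (SD, n = 3). There HSPA8 overlapped HSP90AB1, HSP90AA1 overlapped DNAJA1, and HSPB1 overlapped DNAJB1 between libraries. In Control Input the means were 479 ± 78.3 for HSPA8, 174 ± 18.8 for HSP90AB1, 95.5 ± 3.05 for DNAJA1, 72.3 ± 8.97 for HSP90AA1, 31.5 ± 1.22 for DNAJB1, 21.7 ± 1.22 for HSPH1, 14.95 ± 5.03 for HSPB1 and 0.1002 ± 0.055 for HSPA6. There no neighbouring genes in the order overlapped in their libraries. Control Pulldown and TNIP2 Input had the same order of means as Control Input, with HSPA8 at 416 ± 18.5 and 448 ± 89.6 FPKM and HSPA6 at 0.247 ± 0.148 and 1.16 ± 1.77. In Control Pulldown DNAJA1 overlapped HSP90AA1 and HSPH1 overlapped HSPB1, and in TNIP2 Input HSP90AB1 overlapped DNAJA1 and HSPH1 overlapped HSPB1. HSPA1A and HSPA1B are left out of these orders, because their normalized counts per FPKM, which follow the length used, were 4.61 and 4.74 times that of HSPA6, another intronless HSP70 gene of similar size.

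Recovered with the TNIP2 fragment, most members were more abundant than in RNA recovered with the tag alone, which is the comparison of the same purification with and without the fragment. In limma, 8 of the 9 members tested were higher in TNIP2 Pulldown than in Control Pulldown and 0 were lower, where 30.6% of all 14627 genes tested were higher and 28.7% lower. Among members at 10 or more in every library HSPA1B, HSP90AB1 and HSPB1 had the largest differences, of 9.24-fold, 4.53-fold and 3.68-fold, and HSPH1 did not pass. The median difference was 1.39 on the log2 scale over the 9 members tested, against 0.031 over all genes tested. HSPA6 reached the test only through libraries of the TNIP2 fragment and 1 of Control Pulldown, so the count without it was 7 of 8, with a median of 1.33, and HSPA1A was too low to be tested. All 8 members at 10 or more in every library had every TNIP2 Pulldown library above every Control Pulldown library. That was the case for 31.5% of genes tested. HSPA6 was separated too, but is not counted, because the filter took it in mainly through libraries of the TNIP2 fragment. With quantile normalization or ribosomal protein centring 6 members were higher, where 28.5% and 19.9% of all genes were higher and 30% and 36.8% lower.

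**Figure D2:**
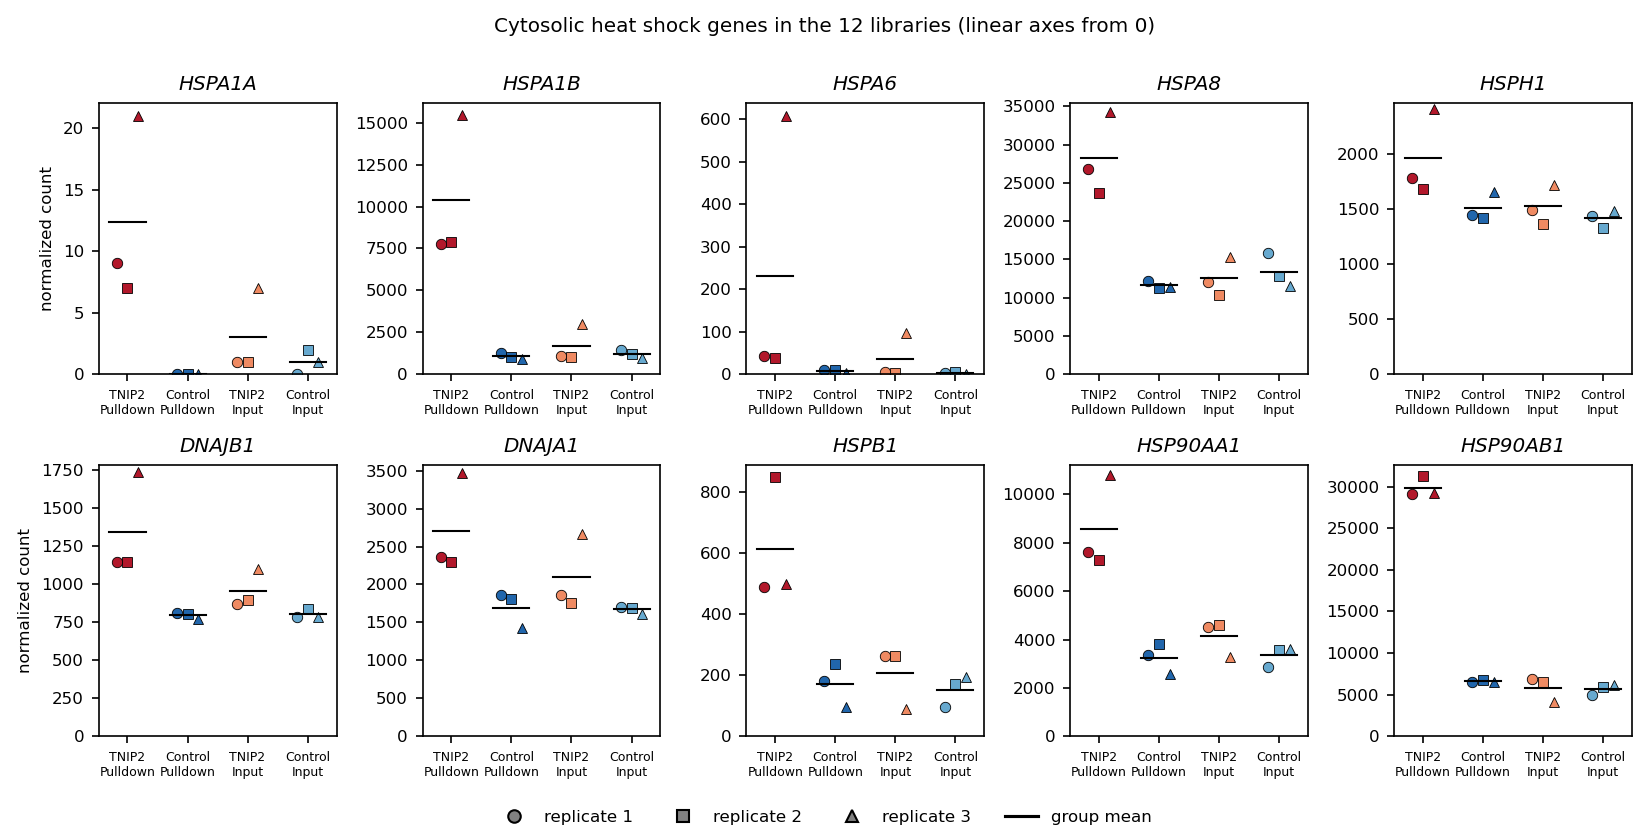
Normalized counts of the 10 members in the 12 libraries on linear axes from 0, with a panel per gene, a marker per replicate number and a line at each group mean. Every TNIP2 Pulldown library lies above every Control Pulldown library in the panels of the 8 members at 10 or more in every library, as in 31.5% of genes tested. HSPA1A is close to the detection limit, and HSPA6 reaches 608 in TNIP2 Pulldown replicate 3.

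HSPA1B encodes the main stress-inducible HSP70, and its protein is all but identical to that of HSPA1A. It had 7747, 7881 and 15464 normalized counts in TNIP2 Pulldown, against 1269, 1008 and 934 in Control Pulldown, and 1075, 1051 and 2997 in TNIP2 Input, against 1461, 1214 and 968 in Control Input. The 3 TNIP2 Pulldown libraries were high and all 9 others were low, with TNIP2 Input replicate 3 the highest among those. TNIP2 Pulldown was 9.24-fold above Control Pulldown (log2 3.21, SE 0.35, adjusted p = 2.4e-06) and 6.53-fold above TNIP2 Input (log2 2.71, SE 0.35, adjusted p = 1.3e-05). The call held in each alternative setting, with log2 values of 2.69 to 3.38 against Control Pulldown.

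HSPA1A had 9, 7 and 21 normalized counts in TNIP2 Pulldown, against 0 in each Control Pulldown library, and 1, 1 and 7 in TNIP2 Input, against 0, 2 and 1 in Control Input. In recovered reads these were 9, 14 and 17 in TNIP2 Pulldown and 0 in each of the 3 Control Pulldown libraries, where a count of 0 allows up to 3 reads, or 8.66, 4.81 and 7.63 normalized counts. No fold is given, since TNIP2 Pulldown was itself near that limit. Reads from these nearly identical genes can be assigned to either copy, so the split between HSPA1A and HSPA1B is uncertain. HSPA1A made up at most 0.233% of the pair, in TNIP2 Input replicate 3. Adding both rows together therefore had to give nearly the result of HSPA1B alone, 3.21 against Control Pulldown (adjusted p = 2.4e-06 in limma). The sum is thus no check of how reads were assigned.

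HSPA6 encodes HSP70B′, which is hardly made without stress. It had 43, 39 and 608 normalized counts in TNIP2 Pulldown, against 9, 11 and 3 in Control Pulldown, and 6, 3 and 97 in TNIP2 Input, against 3, 5 and 1 in Control Input. TNIP2 Pulldown replicate 3 and TNIP2 Input replicate 3 stood far above their groups, with 496 and 80 recovered reads. Control Pulldown held only 3, 7 and 1 reads of it, so the size of the difference is poorly determined (log2 3.71, SE 1.10, adjusted p = 0.0094, 95% interval 2.55-fold to 66.97-fold), and without TNIP2 Pulldown replicate 3 the difference was 2.42 and did not pass (adjusted p = 0.056, range 0.0018 to 0.088 over the alternatives). Against TNIP2 Input it was 7.31-fold (log2 2.87, SE 1.10, adjusted p = 0.037, range 1.1e-05 to 0.20 over the alternatives). That call ended without TNIP2 Pulldown replicate 3 (1.58, adjusted p = 0.20), TNIP2 Input replicate 1 (2.37, adjusted p = 0.12) or TNIP2 Input replicate 2 (1.97, adjusted p = 0.16). It ended also under ribosomal protein centring (2.39, adjusted p = 0.10), no filter (adjusted p = 0.068) and a fit of only the libraries compared (adjusted p = 0.075). HSPA7, a near-identical copy of HSPA6, had 2, 3 and 34 in TNIP2 Pulldown, against 0 in each Control Pulldown library, and 1, 1 and 4 in TNIP2 Input, against 0, 1 and 0 in Control Input, with the highest value in the same library.

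HSPA8 encodes HSC70, the HSP70 of unstressed cells. It had 26844, 23668 and 34261 normalized counts in TNIP2 Pulldown, against 12229, 11265 and 11425 in Control Pulldown, and 12065, 10323 and 15268 in TNIP2 Input, against 15823, 12850 and 11551 in Control Input. The TNIP2 Pulldown libraries lay above all others, and the other 3 groups overlapped. The difference was 2.40-fold against Control Pulldown (log2 1.26, SE 0.19, adjusted p = 4.0e-05) and 2.25-fold against TNIP2 Input (log2 1.17, SE 0.19, adjusted p = 8.2e-05). Quantile normalization ended both calls, at 0.42 (adjusted p = 0.10) and 0.27 (adjusted p = 0.29), with 6.6e-06 to 0.10 and 9.0e-06 to 0.29 over the alternatives.

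Among the partners of HSP70, differences were smaller. DNAJB1, the heat-inducible HSP40, had 1143, 1144 and 1735 normalized counts in TNIP2 Pulldown, against 810, 803 and 773 in Control Pulldown, and 871, 896 and 1101 in TNIP2 Input, against 785, 837 and 781 in Control Input. Its TNIP2 Pulldown libraries lay above all 9 others. It was 1.65-fold above Control Pulldown (log2 0.72, SE 0.17, adjusted p = 0.0020) and 1.38-fold above TNIP2 Input (log2 0.47, SE 0.17, adjusted p = 0.029). Centring on ribosomal protein genes ended the first call (0.38, adjusted p = 0.25, range 3.8e-04 to 0.25) and gave -0.011 for the second (adjusted p = 0.97, range 0.0047 to 0.97). The second call ended also under quantile normalization (0.21, adjusted p = 0.32), in a fit of only the libraries compared (adjusted p = 0.12), and without TNIP2 Pulldown replicate 3 (0.27, adjusted p = 0.099), TNIP2 Input replicate 1 (0.40, adjusted p = 0.10) or TNIP2 Input replicate 2 (0.42, adjusted p = 0.085).

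DNAJA1, an HSP40 with a farnesylated tail, had 2360, 2300 and 3473 normalized counts in TNIP2 Pulldown, against 1862, 1804 and 1422 in Control Pulldown, and 1860, 1757 and 2669 in TNIP2 Input, against 1710, 1694 and 1611 in Control Input. TNIP2 Pulldown lay above Control Pulldown and overlapped TNIP2 Input, whose replicate 3 exceeded TNIP2 Pulldown replicates 1 and 2. It was 1.58-fold above Control Pulldown (log2 0.66, SE 0.20, adjusted p = 0.0091), a call that ended under quantile normalization (0.17, adjusted p = 0.47) and under ribosomal protein centring (0.31, adjusted p = 0.38), with 0.0033 to 0.47 over the alternatives. Against TNIP2 Input, 0.37 did not pass (SE 0.20, adjusted p = 0.12), and with same-numbered libraries as a block it did (adjusted p = 0.016). It also passed without TNIP2 Input replicate 3 (0.56, adjusted p = 0.020), and the direction turned under quantile normalization (-0.14) and ribosomal protein centring (-0.11), with 0.016 to 0.77 over the alternatives.

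HSPH1, the HSP110 that exchanges the nucleotide of HSP70, had 1778, 1683 and 2406 normalized counts in TNIP2 Pulldown, against 1443, 1415 and 1654 in Control Pulldown, and 1487, 1364 and 1715 in TNIP2 Input, against 1431, 1326 and 1482 in Control Input. TNIP2 Pulldown replicate 2 was only just above Control Pulldown replicate 3 and below TNIP2 Input replicate 3. The difference against Control Pulldown did not pass (log2 0.36, SE 0.16, adjusted p = 0.063), nor did that against TNIP2 Input (0.35, SE 0.16, adjusted p = 0.074), with 95% intervals of 1.02-fold to 1.63-fold and 1.01-fold to 1.61-fold. With same-numbered TNIP2 libraries as a block the difference against TNIP2 Input passed (adjusted p = 0.020). Without TNIP2 Input replicate 3 both passed (adjusted p = 0.046 and 0.036), and likewise without TNIP2 Pulldown replicate 2 (adjusted p = 0.031 and 0.037), with 0.031 to 0.96 and 0.020 to 0.82 over the alternatives. Under quantile normalization both differences were slightly below 0, at -0.022 and -0.046.

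HSPB1, the small heat shock protein HSP27, had 491, 852 and 501 normalized counts in TNIP2 Pulldown, against 183, 236 and 96 in Control Pulldown, and 264, 264 and 91 in TNIP2 Input, against 95, 170 and 193 in Control Input. All TNIP2 Pulldown libraries exceeded all others, while TNIP2 Input replicate 3 was the lowest of the 12. The difference was 3.68-fold against Control Pulldown (log2 1.88, SE 0.42, adjusted p = 0.0013) and 3.19-fold against TNIP2 Input (log2 1.68, SE 0.42, adjusted p = 0.0032).

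HSP90AB1, the constitutive HSP90, had 29060, 31253 and 29256 normalized counts in TNIP2 Pulldown, against 6498, 6742 and 6526 in Control Pulldown, and 6941, 6512 and 4128 in TNIP2 Input, against 5022, 5928 and 6208 in Control Input. The TNIP2 Pulldown libraries stood close together and far above the others. The difference was 4.53-fold against Control Pulldown (log2 2.18, SE 0.18, adjusted p = 1.8e-07) and 5.22-fold against TNIP2 Input (log2 2.38, SE 0.18, adjusted p = 9.1e-08), and the calls held in each alternative setting. HSP90AB4P, a pseudogene copy, had 68, 91 and 63 in TNIP2 Pulldown, against 17, 16 and 18 in Control Pulldown (log2 2.04, SE 0.26, adjusted p = 1.1e-05), and how reads were split between the copies is uncertain. SLC35B2, which neighbours HSP90AB1 and encodes a sulfate donor transporter, went the other way, with 232, 163 and 200 in TNIP2 Pulldown, against 650, 558 and 649 in Control Pulldown (log2 -1.65, SE 0.18, adjusted p = 2.0e-06).

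HSP90AA1, the more inducible HSP90, had 7642, 7270 and 10811 normalized counts in TNIP2 Pulldown, against 3377, 3824 and 2574 in Control Pulldown, and 4507, 4619 and 3271 in TNIP2 Input, against 2874, 3550 and 3631 in Control Input. TNIP2 Pulldown lay above every other library. It was 2.62-fold above Control Pulldown (log2 1.39, SE 0.20, adjusted p = 3.4e-05) and 2.07-fold above TNIP2 Input (log2 1.05, SE 0.20, adjusted p = 4.4e-04). The second call ended under quantile normalization (0.42, adjusted p = 0.15) and under ribosomal protein centring (0.57, adjusted p = 0.086), with 4.0e-04 to 0.15 over the alternatives.

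**Figure D3:**
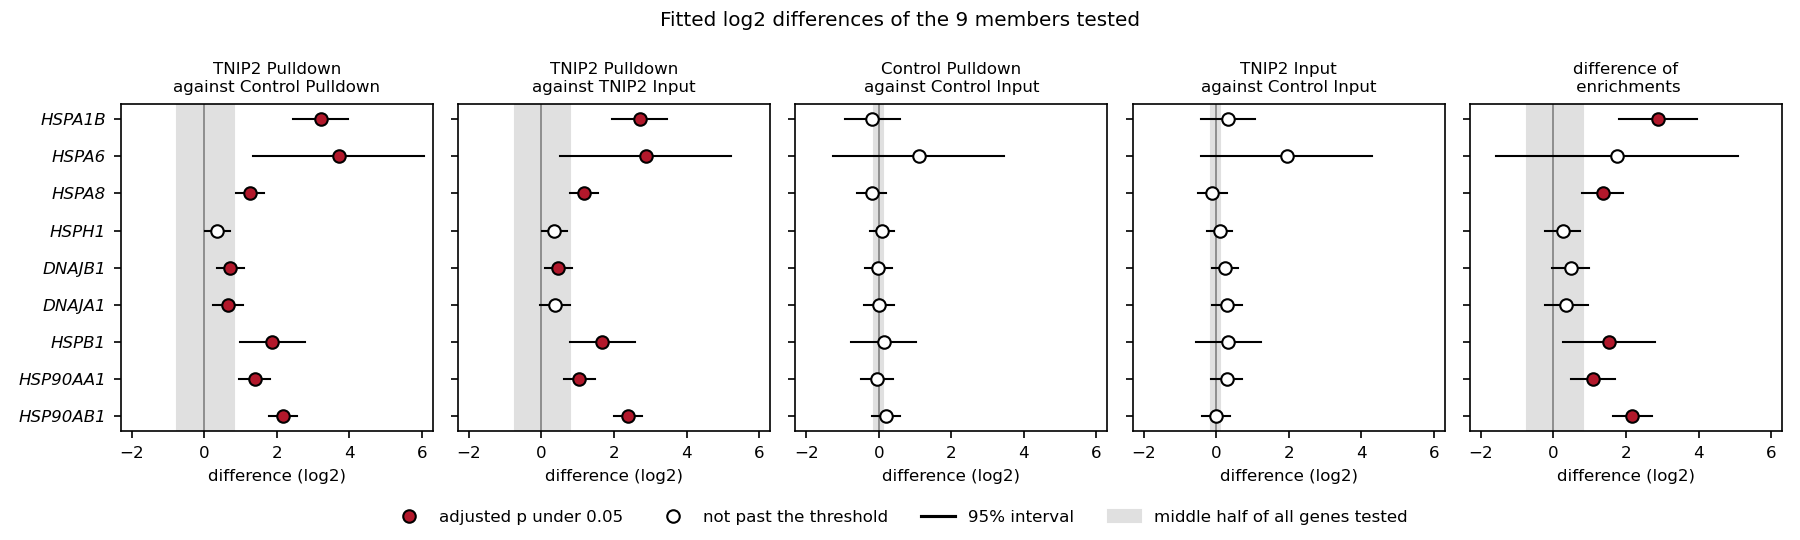
Fitted log2 differences of the 9 members tested, with 95% intervals, in 5 panels from TNIP2 Pulldown against Control Pulldown to the difference of enrichments. Filled points passed an adjusted p of 0.05 in limma, the grey band is the interquartile range of all genes tested, and no member passed in Control Pulldown against Control Input or in TNIP2 Input against Control Input.

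The comparison of TNIP2 Pulldown with its own extract asked which transcripts the purification held above their level in the cell. Of the 9 members tested, 7 were higher and 0 lower in limma, where 29.8% of all genes tested were higher and 28.3% lower, and the median was 1.17 against 0.0050. Without HSPA6, whose level in the TNIP2 libraries brought it into the test, 6 of 8 were higher with a median of 1.11. This comparison uses the same TNIP2 Pulldown libraries as the one before. DNAJA1 and HSPH1 did not pass, and with quantile normalization or ribosomal protein centring 4 members passed in place of 7. Under those scalings 28.0% and 16.5% of all genes were higher and 29.2% and 41.3% lower. With same-numbered libraries as a block within each construct, DNAJA1 (adjusted p = 0.016) and HSPH1 (adjusted p = 0.020) passed as well. With that block, added after seeing the data, 4937 of 14627 genes were higher and 4670 lower. HSPA6, DNAJA1 and HSPH1 overlapped between TNIP2 Pulldown and TNIP2 Input, and the other 6 members tested did not, where all TNIP2 Pulldown libraries lay above in 29.4% of genes tested.

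No member passed the test with the tag alone or between the extracts. Control Pulldown against Control Input gave 0 of 9 members higher and 0 lower in limma and in voom on recovered reads, with 0 at an unadjusted p under 0.05, where 0% of all genes tested were higher and 0.137% lower. The fold was 0.886 for HSPA1B (95% interval 0.526 to 1.49), 0.875 for HSPA8 (0.664 to 1.15) and 1.16 for HSP90AB1 (0.885 to 1.51). Every Control Pulldown library of HSP90AB1 lay above every Control Input library, and the other members overlapped. TNIP2 Input against Control Input likewise gave 0 and 0 in limma and in voom, with 0 at an unadjusted p under 0.05, where 0.00684% of all genes tested were higher and 0% lower. There HSPA1B had a fold of 1.25 (95% interval 0.744 to 2.11), HSPA6 3.85 (0.752 to 19.7), DNAJA1 1.23 (0.923 to 1.64), DNAJB1 1.19 (0.922 to 1.53) and HSP90AB1 1.00 (0.768 to 1.31). Every TNIP2 Input library of DNAJB1 and of DNAJA1 lay above every Control Input library, and the other members overlapped. The share of all genes separated in this way is not given here for either comparison. In such bulk RNA, more cells expressing a gene and more RNA per cell cannot be told apart.

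The difference of enrichments, which subtracts the Control Pulldown over Control Input change from that of the TNIP2 fragment, asked which members the fragment enriched beyond the tag. In limma 5 of 9 members were higher and 0 lower, where 22.6% of all genes tested were higher and 20.2% lower, and without HSPA6 it was 5 of 8. HSPA1B had 2.88 (SE 0.50, adjusted p = 3.6e-04), HSP90AB1 2.17 (SE 0.26, adjusted p = 1.7e-05), HSPA8 1.36 (SE 0.26, adjusted p = 8.5e-04), HSPB1 1.54 (SE 0.59, adjusted p = 0.048) and HSP90AA1 1.10 (SE 0.29, adjusted p = 0.0064). DNAJB1 (0.48, adjusted p = 0.13), DNAJA1 (0.36, adjusted p = 0.31), HSPH1 (0.26, adjusted p = 0.37) and HSPA6 (1.76, adjusted p = 0.38) did not pass. A block for same-numbered libraries within each construct, whose tag-only numbers were not paired, brought HSPA6 (adjusted p = 0.0080) and DNAJB1 (adjusted p = 0.034) past the threshold. With that block 4103 of all 14627 genes were higher and 3654 lower. The call of HSPB1 ended without Control Input replicate 2 or 3 (adjusted p = 0.099 and 0.11), Control Pulldown replicate 1 or 3 (0.063 and 0.13), TNIP2 Input replicate 3 (value 1.03, adjusted p = 0.10) or TNIP2 Pulldown replicate 1 or 2 (0.056 and 0.12), with 0.015 to 0.21 over all alternatives. It ended also under ribosomal protein centring (0.95, adjusted p = 0.21), log2(FPKM + 0.1) (adjusted p = 0.057), no filter (0.083) and voom (0.067). Quantile normalization and ribosomal protein centring ended those of HSPA8 (0.33 and 0.78) and HSP90AA1 (0.43 and 0.51), with 4.9e-05 to 0.40 and 0.0057 to 0.32 over the alternatives.

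Ratios of same-numbered Pulldown and Input libraries showed how evenly the purification with the TNIP2 fragment held each gene. Tag-only numbers were not paired, so the spread of the tag-only ratios, and any overlap with them, depends on an arbitrary matching. With the TNIP2 fragment the ratios were 2.22, 2.29 and 2.24 for HSPA8, against 0.773, 0.877 and 0.989 with the tag alone. For HSPA1B they were 7.21, 7.50 and 5.16 with the fragment, against 0.869, 0.830 and 0.965 with the tag alone. For HSP90AB1 they were 4.19, 4.80 and 7.09, against 1.29, 1.14 and 1.05. The level of HSPA1B and HSPA8 was thus higher in TNIP2 libraries numbered 3 in extract and purified material alike, while their ratios with the fragment were 5.16 to 7.50 and 2.22 to 2.29. HSPB1 was the most uneven, at 1.86, 3.23 and 5.51 with the fragment, against 1.93, 1.39 and 0.497 with the tag alone, and overlapped between constructs. HSPA6 had ratios of 7.17, 13 and 6.27 with the fragment, against 3, 2.2 and 3 with the tag alone. Its tag-only ratios rest on 1 to 7 reads per library, and TNIP2 Input replicates 1 and 2 held only 9 and 4 reads.

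**Figure D4:**
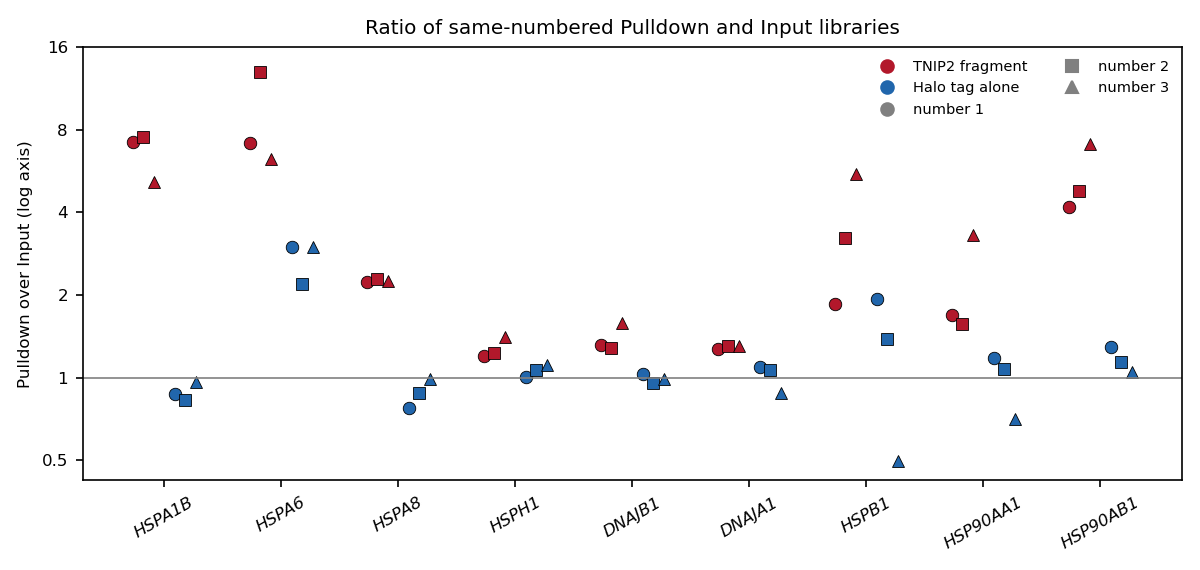
Ratio of Pulldown over Input for libraries with the same number, on a log axis, for the 9 members tested, with the TNIP2 fragment in red left of the tag alone in blue. HSPA8 has 3 nearly equal ratios with the fragment, from 2.22 to 2.29, and HSPB1 ranges from 1.86 to 5.51. Tag-only numbers were not paired, so the spread of the blue points depends on an arbitrary matching.

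HSPA6 stood apart in both TNIP2 libraries numbered 3, and HSPA1B did in the extract. Relative to the mean of numbers 1 and 2, HSPA6 was 3.86 higher on the log2 scale in TNIP2 Pulldown replicate 3, with 1 gene of all those tested showing a larger value, and 4.21 higher in TNIP2 Input replicate 3, with 0 larger. TNIP2 Input replicates 1 and 2 held only 6 and 3 normalized counts of HSPA6, so the size of 4.21 is poorly determined. HSPA1B was 0.98 and 1.49 higher in the same libraries, DNAJA1 0.58 and 0.56 higher and DNAJB1 0.60 and 0.32 higher. HSPA8 was 0.44 and 0.45 higher and HSPH1 0.48 and 0.27 higher, and HSP90AA1 had 0.54 and -0.48. Of all genes tested, 90% lay between -1.10 and 1.05 in TNIP2 Pulldown and between -1.06 and 1.03 in TNIP2 Input. HSPB1 and HSP90AB1 did not follow, at -0.37 and -0.043 in TNIP2 Pulldown and -1.53 and -0.70 in TNIP2 Input. The TNIP2 transcript was 1.68 and 1.64 higher in the same libraries, and its part in these values was not tested. Without both libraries HSPA1B differed by 2.88 between TNIP2 Pulldown and Control Pulldown (adjusted p = 3.9e-09).

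Other chaperone lists, drawn in the plot of chaperone groups, are read against all genes tested, of which 30.6% were higher and 28.7% lower. Between TNIP2 Pulldown and Control Pulldown, HSP70 partners and paralogs had 9 higher and 10 lower of 29 tested (median -0.27), HSP90 co-chaperones 5 higher and 6 lower of 22 (median -0.089), and other heat-inducible genes 10 higher and 3 lower of 22 (median 0.24), where the median of all genes was 0.031. The lists share genes such as STIP1. PPP5C, a phosphatase that docks on HSP90, had 5104, 5445 and 4833 normalized counts in TNIP2 Pulldown, against 839, 816 and 818 in Control Pulldown (log2 2.63, adjusted p = 3.5e-08). STIP1, the HOP protein that links HSP70 to HSP90, was higher by 1.98 (adjusted p = 9.2e-07), and FNIP1, a folliculin partner that slows the HSP90 ATPase, by 1.77 (adjusted p = 3.2e-07). DNAJB5 and DNAJC2, both J-domain proteins, were higher by 2.16 and 1.78, and BAG4, a BAG-domain partner of HSP70, was -1.66, with 371, 356 and 398 in TNIP2 Pulldown, against 1214, 1139 and 1210 in Control Pulldown. Of the inducible list, UBB, a polyubiquitin gene, was higher by 1.93 and SERPINH1, the collagen chaperone HSP47, by 1.62.

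**Figure D5:**
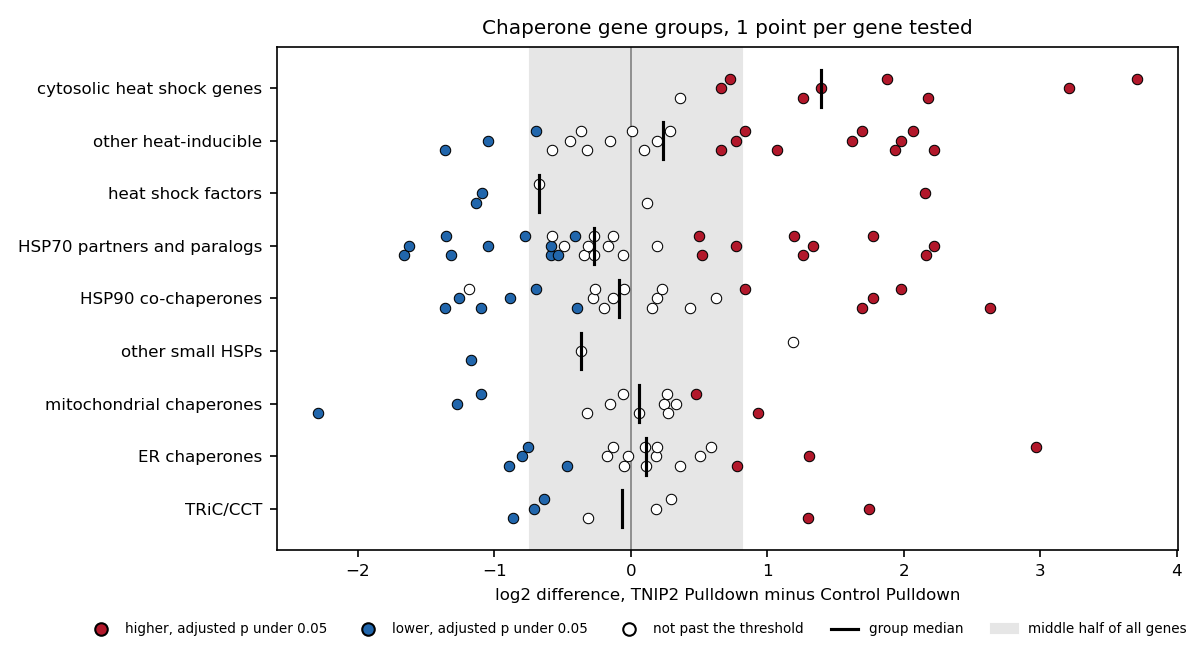
Log2 difference of TNIP2 Pulldown minus Control Pulldown for each gene tested in 9 chaperone groups, with red and blue points past an adjusted p of 0.05 in limma, a black line at each group's median and the interquartile range of all genes in grey. Of the 9 cytosolic heat shock genes 8 are red and 0 blue, and each of the other groups holds blue points as well as red, apart from the other small heat shock proteins with 0 red.

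Of 5 heat shock factors and their binding proteins tested 1 was higher and 2 lower, where 30.6% of all genes were higher and 28.7% lower. HSF1, the main heat shock factor, had 327, 279 and 453 normalized counts in TNIP2 Pulldown, against 805, 860 and 631 in Control Pulldown, and 816, 819 and 834 in TNIP2 Input, against 720, 866 and 779 in Control Input. TNIP2 Pulldown was below every other library (log2 -1.13 against Control Pulldown, SE 0.18, adjusted p = 9.2e-05). HSBP1, a small protein that binds HSF1, was lower too (-1.09, adjusted p = 8.3e-05), whereas its relative HSBP1L1 was higher (2.16, adjusted p = 2.5e-06). Against TNIP2 Input the list also had 1 higher and 2 lower.

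Chaperones outside the cytosol had shares of higher and lower calls that are read against the same 30.6% and 28.7% of all genes. Endoplasmic reticulum chaperones had 3 higher and 4 lower of 18 against Control Pulldown (median 0.11), led by HSP90B1, the HSP90 of that compartment, with 63781, 58923 and 41195 normalized counts in TNIP2 Pulldown, against 8108, 7008 and 5695 in Control Pulldown (log2 2.97, SE 0.21, adjusted p = 5.4e-08). P4HB, a protein disulfide isomerase, was higher by 1.31 and DNAJC10, a J-domain disulfide reductase, was -0.80. Mitochondrial chaperones had 2 higher and 3 lower of 13 (median 0.064), the lower ones being the protease subunits CLPP (-2.29) and CLPX (-1.27) and the nucleotide exchange factor GRPEL2 (-1.10). The TRiC chaperonin, a ring that folds actin and tubulin, had 2 higher and 3 lower of 8 (median -0.063), with CCT5 at 1.74, CCT8 at 1.30 and CCT6A at -0.86. Of the list of other small heat shock proteins, drawn up by symbol alone, 3 were tested, with 0 higher and 1 lower, HSPB11 at -1.17. HSPB9 (1.19, adjusted p = 0.20) and HSPB8 (-0.37, adjusted p = 0.55) did not pass and were low, with means of 8.33 and 18.3 normalized counts in TNIP2 Pulldown. Against TNIP2 Input, where 29.8% of all genes were higher and 28.3% lower, these lists gave 3 higher and 4 lower, 2 and 3, 2 and 3, and 0 and 2, and 7 and 8 for HSP70 partners, 6 and 5 for HSP90 co-chaperones and 10 and 4 for other heat-inducible genes, and 0 genes of any list passed in the comparisons of the tag alone or of the extracts.

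Genes outside the family whose levels ran most alike with a member were found by Pearson's r of log2 normalized counts over the 12 libraries, given as a description. These libraries form 1 high and 1 low set for most members, so r mainly reflects that split. For HSPA1B the nearest were ZSWIM3 (0.995), REPIN1 (0.994) and ADRM1 (0.994), and for HSP90AB1 they were SUPT16H (0.997), ARID1B (0.996) and TADA2B (0.995). HSPA6, high in both TNIP2 libraries numbered 3, ran with NPIPB6 (0.970), JMJD6 (0.966) and FAM214A (0.960). HSPA8 was nearest MCM7 (0.989), HSP90AA1 nearest SEC16A (0.991), HSPB1 nearest PHACTR4 (0.986), DNAJB1 nearest ICOSLG (0.988), DNAJA1 nearest TRMT6 (0.972) and HSPH1 nearest ATF3 (0.968).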

How the data were processed

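Normalized counts and FPKM were deposited by gene symbol with a column per library. The deposited normalized counts are treated as a score: whole numbers already divided by library factors, so no count model was the main test. The deposited FPKM values are reads per length and depth as the authors computed them. The tools TopHat2 2.0.14 and DESeq2 1.6.3 and the build hg19 come per the submitters' processing notes, and what counted reads, whether by strand, and in which annotation is not given in the sources used here. Columns of the TNIP2 fragment were assigned by elimination, since their letter does not match a label and the other construct's does.

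The tables hold 25369 genes, 4492 of them at 0 throughout, and the test took the 14627 that reached 10 normalized counts in 3 libraries or more. Differences are on the scale of log2(normalized count + 1), where changes of low genes come out too small. A single limma 3.58.1 fit gave each group its mean over all 12 libraries (R 4.3.3, lmFit and eBayes with trend, 8 residual degrees of freedom), two-sided, with Benjamini-Hochberg adjustment over all genes tested, and called at an adjusted p under 0.05. Fold changes are from the fit, and group values are means with SD. Whole reads were recovered from steps of the FPKM values: 98.6 to 100% of 349 to 2251 low values per library were whole within 0.1 reads, and 1 read was worth 0.511 to 2.89 normalized counts. Limits on a count of 0 cover counting error only. The procedures were tested on simulated data.

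The members and lists were chosen with earlier results of these data known. Named beside the members were up to 3 genes per list with the smallest p in each comparison of TNIP2 Pulldown, copies and neighbours in the tables, and the 3 genes most alike in r, of which the first is given for some members. Same-numbered libraries were checked for pairing by the correlation of their deviations from group means: 0.37, 0.46 and 0.50 for TNIP2 Pulldown with TNIP2 Input, which paired them, 0.074 to 0.077 for the tag alone, and -0.20 to 0.15 between constructs, which did not. Alternatives were quantile normalization, centring on 78 ribosomal protein genes, median-of-ratios factors, a pseudocount of 10, log2(FPKM + 0.1), no filter, a minimum of 50, voom on recovered reads, fits of only the libraries compared, replicate blocks, and leaving out libraries. The block within each construct was added after seeing the data. Promoters came from RefSeq, and positions count from 0 at the annotated start.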

Additional observations from a re-analysis of the deposited data

Results flagged for a closer look

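For 5 members the Pulldown over Input change of the TNIP2 fragment differed from that of the tag alone by the test of the difference itself in limma. On the log2 scale HSPA1B differed by 2.88 and HSP90AB1 by 2.17. HSPA8 differed by 1.36 and HSP90AA1 by 1.10, both of which lost the call under quantile normalization and under ribosomal protein centring. HSPB1 differed by 1.54, with a call that ended when any of 7 single libraries was left out, and under ribosomal protein centring, log2(FPKM + 0.1), no filter and voom. No group here was large enough for a check of single outlying libraries.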

How the results depend on the processing

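Members higher in TNIP2 Pulldown than in TNIP2 Input numbered 4 with quantile normalization and 4 with centring on ribosomal protein genes, and members higher in the difference of enrichments 3 and 2, while 6 were higher against Control Pulldown under either. Of all genes, 28.0% and 16.5% were then higher against TNIP2 Input, and 20% and 10% in the difference, in place of 29.8% and 22.6%. Centring moved every gene by the same amount: the median of all genes shifted by -0.35 against Control Pulldown, -0.48 against TNIP2 Input and -0.59 in the difference, so members kept their place relative to it, and DNAJB1 against TNIP2 Input became -0.011 (adjusted p = 0.97). HSPH1 and DNAJA1, not called against TNIP2 Input, were there at -0.13 and -0.11. Leaving out libraries gave 7 to 9 members higher against Control Pulldown, 5 to 9 against TNIP2 Input and 4 to 5 in the difference. With single libraries left out, 4095 to 4743, 3934 to 4618 and 2857 to 3834 of all 14627 genes were higher in the same order. The replicate block gave 9, 8 and 5, and within each construct 9 against TNIP2 Input and 7 in the difference, adding HSPA6 (adjusted p = 0.0080) and DNAJB1 (adjusted p = 0.034), where tag-only numbers were not paired. All-gene calls rose as well, from 4481, 4358 and 3301 higher to 4652, 4529 and 3523 with the replicate block. Within each construct 4937 genes were higher against TNIP2 Input and 4103 in the difference. HSPA6 is included in these member counts. HSPA6 against Control Pulldown lost its call with voom, at 3.44 (adjusted p = 0.088). Of 1093 values of single members under alternatives, 1043 kept their side of the threshold, and 30 of these, all uncalled, changed sign. This total includes the comparisons of the tag alone and of the extracts, where no member was called in any setting. The other 50 values, which changed side, all belong to the comparisons of TNIP2 Pulldown and the difference of enrichments. Depth limits HSPA1A and HSPA6 in Control Pulldown most, and the cause of each change was not tested.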

Other observations

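Of further genes of the heat response, 3 were chosen after their values were seen. BAG3, an HSP70 nucleotide exchange factor that responds to heat, had 534, 571 and 1717 normalized counts in TNIP2 Pulldown, against 209, 186 and 131 in Control Pulldown, and 216, 197 and 367 in TNIP2 Input, against 147, 173 and 154 in Control Input. All TNIP2 Pulldown libraries lay above the others, with number 3 the highest (log2 2.22 against Control Pulldown, SE 0.37, adjusted p = 1.0e-04 in limma). ZFAND2A, a zinc finger gene induced by arsenite, had 646, 599 and 1164 in TNIP2 Pulldown, against 183, 179 and 184 in Control Pulldown, and was higher by 2.07 (SE 0.38, adjusted p = 2.7e-04). CHORDC1, an HSP90 partner, had 290, 248 and 444 in TNIP2 Pulldown, against 765, 851 and 831 in Control Pulldown, a difference of -1.36 (SE 0.21, adjusted p = 5.7e-05). In all 3 genes TNIP2 Input replicate 3 exceeded TNIP2 Input replicates 1 and 2, from which nothing is read, since the genes were picked. For BAG3 the excess over the mean of replicates 1 and 2 was 0.83 on the log2 scale. Of all genes tested, 1215 had a larger value in that library.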
